A study of Mus musculus with 6 samples.

Results

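The genes of sterol synthesis and of its transcriptional switch SREBP2 were followed in RAW264.7, a macrophage-like cell line from mouse. The 8 genes were taken by symbol from a table of 10780 protein-coding genes, and all 8 were found and tested: the regulators Srebf2, Scap and Insig1 and the enzymes Hmgcs1, Idi1, Fdft1, Sqle and Cyp51. The 6 libraries form 3 groups of 2, each numbered replicate 2 and replicate 3. The groups are untreated control cells, cells treated with LPS at 10 ng/ml (lipopolysaccharide, the endotoxin of Gram-negative bacteria), and cells treated with the same LPS dose and with Sal-B at 50 μmol/L, called the combination below and LPS + Sal-B or LPS plus Sal-B in the plots. Sal-B is not spelled out in the labels, no treatment time is given, and no group received Sal-B without LPS. All groups are the same line, and the labels do not say whether replicates came from separate cultures, so every p-value reflects spread among these libraries, which may be technical.

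SREBP2, encoded by Srebf2, is made as a membrane protein of the endoplasmic reticulum. When sterols are scarce SCAP escorts it to the Golgi, where it is cleaved and its free part enters the nucleus to raise the genes of cholesterol synthesis and uptake. When sterols are plentiful INSIG proteins hold SCAP back, and Insig1 is itself a target of SREBP2, which closes a feedback loop. In macrophages the pathway is known to be sensitive to Toll-like receptor and interferon signals and to oxysterols. Transcript levels do not show how much SREBP2 is cleaved.

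Levels are in FPKM, a fragment count corrected for transcript length and library depth, and each FPKM value was turned into log2(FPKM + 1) for testing, so fold changes of low genes are understated. Totals ran from 309767 to 374371 FPKM per library. No read counts were used here. From the spacing of the lowest values, depth was put roughly at 6440000 to 8860000 fragments, resting on only 3 to 11 values per library within 1% of the step. At that depth Scap, the lowest of the 8 genes, would rest on about 54 to 106 fragments and Srebf2, the highest, on 844 to 1906. Of 10 macrophage markers 9 were measured, with summed levels of 1454 and 1927 FPKM in control, 1549 and 1551 with LPS and 713 and 725 with the combination. Of 20 markers of T cells, B cells, fibroblasts and epithelium only Cd79b had values, at 0.305 to 1.43 FPKM. Every gene with values reached a mean of about 0.5 FPKM or more in its highest group. Whether lower genes were filtered out is not given in the sources used here, so a marker without values may be low rather than absent. Cd68 and Lyz2 made up most of each macrophage sum, which therefore does not stand for every marker. Itgam read 25.5 and 25.1 FPKM in control, 18.1 and 17.2 with LPS, and 26.5 and 25.9 with the combination. The other measured macrophage markers were lower with the combination than with LPS. The lower macrophage marker sum with Sal-B moves with every comparison to that group below, and its part in those results was not tested. All libraries are of the same line, so a lower marker level is a lower share of its RNA and gives no count of cells. The control pair spread widest, with 13.3% of genes more than 1.5-fold apart, against 3.83% in LPS and 1.96% in the combination.

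The typical gene was lower in treated libraries, and the 8 genes have to be read against that. Among the 10014 genes tested, the median log2 fold change was −0.40 for LPS against control, −0.22 for the combination against LPS and −0.63 for the combination against control. Scaling the libraries to the same median moved these medians to 0.013, −0.049 and −0.021. Values below are as deposited unless they are said to be at the same median.

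Promoter sequence is shown for the 2 genes that rose when Sal-B was added to LPS, Srebf2 and Hmgcs1, and for Cyp51, an enzyme gene that did not. The windows are the 250 bases before the RefSeq start (GRCm38.p6), written 5′ to 3′ on the strand of the gene, and capitals mark matches on either strand to the sterol regulatory element core TCACNCCAC, the pentamer of the CCAAT box or the E-box hexamer CACGTG. Srebf2 lies at chr15:82147019-82147268 (+), Hmgcs1 at chr13:119690101-119690350 (+) and Cyp51 at chr5:4104698-4104947 (−).
Srebf2: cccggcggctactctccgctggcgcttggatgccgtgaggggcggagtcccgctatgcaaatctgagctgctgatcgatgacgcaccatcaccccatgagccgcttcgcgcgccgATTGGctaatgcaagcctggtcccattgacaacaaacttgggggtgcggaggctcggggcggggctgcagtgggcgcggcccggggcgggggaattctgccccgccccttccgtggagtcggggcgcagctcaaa
Hmgcs1: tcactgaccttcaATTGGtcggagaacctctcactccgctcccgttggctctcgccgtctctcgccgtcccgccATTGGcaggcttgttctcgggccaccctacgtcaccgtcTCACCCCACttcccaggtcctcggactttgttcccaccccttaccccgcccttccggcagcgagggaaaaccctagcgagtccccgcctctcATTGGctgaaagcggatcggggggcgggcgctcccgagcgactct
Cyp51: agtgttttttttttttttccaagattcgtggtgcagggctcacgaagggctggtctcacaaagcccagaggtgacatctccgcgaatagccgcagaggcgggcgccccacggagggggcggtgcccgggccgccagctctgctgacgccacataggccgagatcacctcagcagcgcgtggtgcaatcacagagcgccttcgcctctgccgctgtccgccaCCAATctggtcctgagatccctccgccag

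Windows were found for 6 of the 8 genes. An exact match to the sterol element core was present in 1 of these 6, Hmgcs1, with its first base 137 bases before the start. It was present in 1.05% of all 32851 windows of this length. Near matches were not counted, so a window without a match is not shown to lack a sterol element. The Srebf2 window, for example, holds tcaccccat, which departs from the core only in its last base. The CCAAT box, which binds NF-Y, a partner of SREBPs on sterol promoters, was present in 5 of the 6 and in 33.8% of all windows. Hmgcs1 held 3 of these boxes and Srebf2 held 1, which begins 135 bases before the start. The E-box was present in Insig1 and in 1 of the windows of Scap, and in 6.02% of all windows. The motifs do not overlap each other in these windows. A match is a run of letters and was not tested for binding.

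With the combination, Srebf2 was 1.65-fold and Hmgcs1 1.40-fold higher than with LPS alone, and the other 6 genes did not pass the test. Of all genes tested, 10.5% were higher and 31.8% lower in that comparison. The calls of Srebf2 and Hmgcs1 were both lost when either combination library was left out. With LPS alone Sqle fell, by about as much as the typical gene, and 0 of the 8 genes rose, although 4 rose at the same median. Among all genes 14.2% were higher and 48.9% lower with LPS, and 28.9% and 26.4% at the same median. Between the combination and untreated cells, Srebf2 was the only 1 of the 8 called, 1.71-fold higher, where 14.0% of all genes were higher and 58.8% lower.

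**Figure D1:**
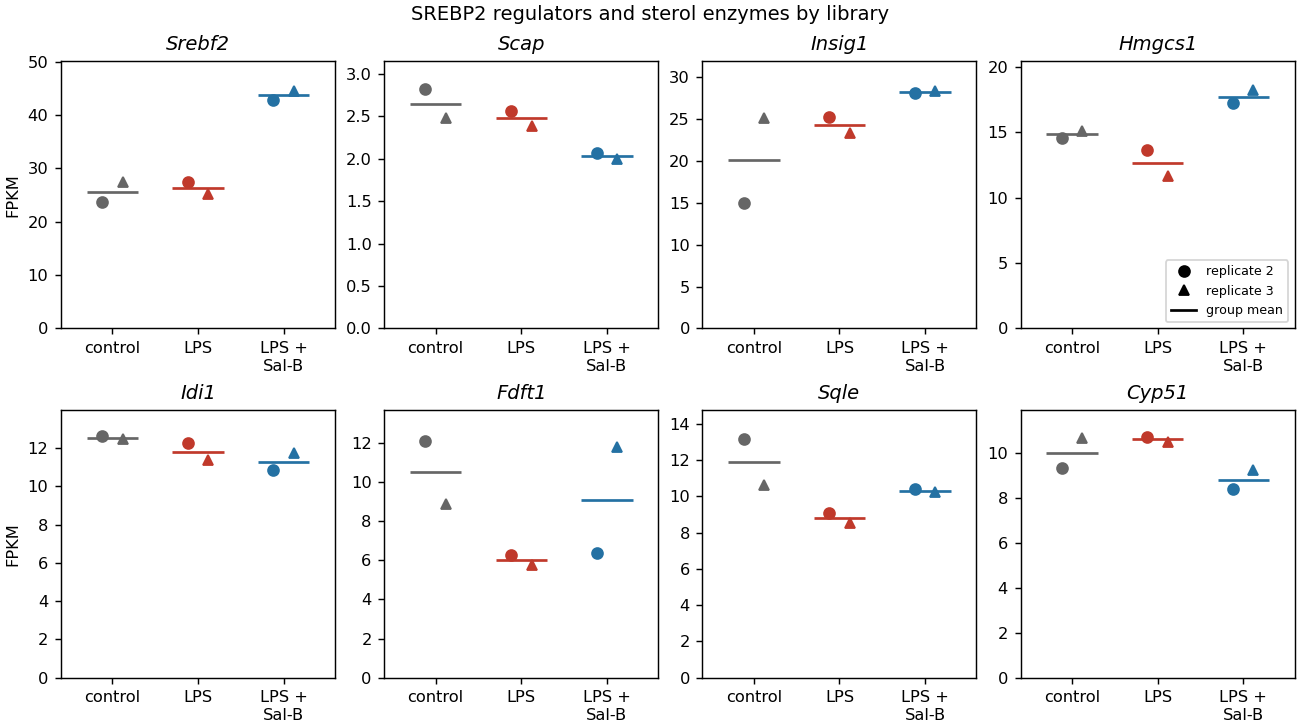
FPKM of the 8 genes in the 6 libraries, with circles for replicate 2, triangles for replicate 3 and a line at each group mean; each panel has its own axis from 0. Srebf2 stood at 42.8 and 44.5 FPKM with the combination and between 23.8 and 27.5 in the other 4 libraries, and Fdft1 differed within the combination pair, at 6.36 and 11.8.

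Srebf2 (ENSMUSG00000022463.7, chromosome 15, 82147266 to 82205376, plus strand, GRCm38), which encodes the transcription factor itself, read 23.8 and 27.4 FPKM in control, 27.5 and 25.3 under LPS, and 42.8 and 44.5 with the combination. Both libraries given Sal-B lay above all 4 others, and the control and LPS pairs overlapped. The rise over LPS was 0.71 ± 0.11 on the log2 scale (SE; limma, adjusted p = 0.00581; 95% confidence interval 0.44 to 0.97), larger than in 94.4% of genes tested, and 0.95 at the same median. Without combination replicate 2 or replicate 3 the change stayed at 0.73 and 0.68 but missed the threshold (adjusted p = 0.0562 and 0.0575). Against control it rose by 0.75 ± 0.11 (adjusted p = 0.00146; 1.48 at the same median). LPS alone gave 0.045 ± 0.11 (adjusted p = 0.726, interval −0.22 to 0.31) as deposited and 0.53 at the same median (adjusted p = 0.00899).

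Scap (ENSMUSG00000032485.14, chromosome 9, 110333288 to 110384950, plus strand), the escort of SREBP2, was the lowest of the 8 genes. It read 2.82 and 2.48 FPKM in control, 2.56 and 2.39 with LPS, and 2.07 and 2.0 with the combination. The libraries given Sal-B were the lowest of the 6, but the difference from LPS, −0.20 ± 0.10 (adjusted p = 0.181, interval −0.46 to 0.063), did not pass, nor did that from control, −0.27 ± 0.10 (adjusted p = 0.0619). Without control replicate 3 the latter was −0.33 (adjusted p = 0.0230), and at the same median it was 0.26. LPS alone gave −0.069 ± 0.10 (adjusted p = 0.581).

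Insig1 (ENSMUSG00000045294.11, chromosome 5, 28071363 to 28078662, plus strand), the anchor of SCAP and a feedback target, read 14.9 and 25.2 FPKM in control, 25.3 and 23.4 with LPS, and 28.2 and 28.4 with the combination. The control libraries stood 1.69-fold apart, and control replicate 3 lay among the LPS values. Against LPS the Sal-B libraries differed by 0.21 ± 0.23 (adjusted p = 0.497, interval −0.37 to 0.79). That error pools the wide control pair: without control replicate 2 or control replicate 3 the same 0.21 had an adjusted p of 0.0257 and 0.0270. LPS against control gave 0.31 ± 0.23 (adjusted p = 0.286), which became 0.67 without control replicate 3 (adjusted p = 0.00132) and −0.050 without control replicate 2 (adjusted p = 0.522). The combination against control gave 0.52 ± 0.23 (adjusted p = 0.0902), 0.88 without control replicate 3 (adjusted p = 0.000425) and 0.16 without control replicate 2 (adjusted p = 0.0778).

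Hmgcs1 (ENSMUSG00000093930.2, chromosome 13, 119690379 to 119708260, plus strand) is HMG-CoA synthase, an early enzyme of the mevalonate pathway. It read 14.6 and 15.1 FPKM in control, 13.7 and 11.6 with LPS, and 17.2 and 18.3 with the combination, and no group overlapped another. It rose over LPS by 0.46 ± 0.11 (adjusted p = 0.0207, interval 0.19 to 0.73), more than 89.4% of genes tested. The call was lost without LPS replicate 3 (0.35, adjusted p = 0.108), without combination replicate 2 (0.50, adjusted p = 0.108) and without combination replicate 3 (0.42, adjusted p = 0.142). LPS alone gave −0.22 ± 0.11 (adjusted p = 0.124) and the combination against control 0.24 ± 0.11 (adjusted p = 0.0890), the latter 0.95 at the same median (adjusted p = 0.000744).

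Idi1 (ENSMUSG00000058258.14, chromosome 13, 8885501 to 8892451, plus strand) interconverts the isoprene units from which squalene is built. It was the steadiest of the 8, at 12.6 and 12.5 FPKM in control, 12.2 and 11.4 with LPS, and 10.8 and 11.7 with the combination. Its differences were −0.081 ± 0.093 with LPS (adjusted p = 0.476, interval −0.31 to 0.15) and −0.061 ± 0.093 when Sal-B was added (adjusted p = 0.625, interval −0.29 to 0.17). At the same median these became 0.39 (adjusted p = 0.0124) and 0.17 (adjusted p = 0.165), so its steadiness holds for the values as deposited.

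Fdft1 (ENSMUSG00000021273.10, chromosome 14, 63145150 to 63179578, minus strand), squalene synthase, commits the pathway to sterols. It read 12.1 and 8.88 FPKM in control, 6.26 and 5.75 with LPS, and 6.36 and 11.8 with the combination. The LPS pair lay below both control libraries, and the Sal-B pair was split, 1.86-fold apart, with replicate 2 next to LPS and replicate 3 next to control. LPS against control gave −0.70 ± 0.29 (limma, adjusted p = 0.0775), and −0.25 at the same median (adjusted p = 0.473). The difference was −0.50 without control replicate 2 and −0.91 without control replicate 3. The same −0.70 passed when combination replicate 2 or combination replicate 3 was left out of the shared error. Sal-B added to LPS gave 0.47 ± 0.29 (adjusted p = 0.233, interval −0.24 to 1.19), with 0.87 without combination replicate 2 and 0.072 without combination replicate 3 (adjusted p = 0.0706 and 0.843).

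Sqle (ENSMUSG00000022351.14, chromosome 15, 59315077 to 59331192, plus strand), squalene monooxygenase, carries out the first oxygen-requiring step. It read 13.2 and 10.7 FPKM in control, 9.08 and 8.55 with LPS, and 10.4 and 10.2 with the combination, so that the groups did not overlap. It fell with LPS by 0.39 ± 0.12 on the log2 scale (adjusted p = 0.0355), a value that lies above 50.8% of genes tested, the middle of the distribution. At the same median the change was 0.072 (adjusted p = 0.601), and the adjusted p as deposited ran from 0.0835 to 0.153 without LPS replicate 2, LPS replicate 3, combination replicate 2 or combination replicate 3. Sal-B added to LPS gave 0.21 ± 0.12 (adjusted p = 0.226), and 0.44 at the same median (adjusted p = 0.0289). Without control replicate 2 or control replicate 3 the deposited 0.21 also passed (adjusted p = 0.0344 and 0.0338).

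Cyp51 (ENSMUSG00000001467.5, chromosome 5, 4081145 to 4104746, minus strand), lanosterol demethylase, acts after the sterol ring is closed. It read 9.32 and 10.7 FPKM in control, 10.7 and 10.5 with LPS, and 8.40 and 9.25 with the combination. The Sal-B libraries were the lowest of the 6. The difference from LPS was −0.24 ± 0.11 (adjusted p = 0.122, interval −0.51 to 0.025), and it passed without control replicate 2 or control replicate 3 (adjusted p = 0.0324 and 0.0330). At the same median it was −0.017 (adjusted p = 0.910). LPS alone gave 0.081 ± 0.11 (adjusted p = 0.534) as deposited and 0.54 at the same median (adjusted p = 0.00861).

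In counts, 0 of the 8 genes rose and 1 fell with LPS, where 63.1% of all genes tested were called, 14.2% higher and 48.9% lower. When Sal-B was added to LPS, 2 rose and 0 fell, against 42.3% of all genes called, 10.5% higher and 31.8% lower. Cells given both agents had 1 of 8 higher and 0 lower than control, against 72.8% called, 14.0% higher and 58.8% lower. Libraries of the groups compared did not overlap for 4, 7 and 7 of the 8 genes, while this held for 81.2%, 83.0% and 87.1% of all genes, so separate pairs were common among all genes. At the same median, 4, 3 and 6 of the 8 rose and 0, 0 and 0 fell, against 28.9%, 17.6% and 31.7% of all genes higher and 26.4%, 20.2% and 32.0% lower. The median change of the 8 genes was −0.075, 0.21 and −0.15, beside −0.40, −0.22 and −0.63 over all genes. The 3 comparisons share libraries in pairs and are not independent of each other. With each treated pair averaged to 1 sample, 0 of 10014 genes passed in limma for the combination against LPS, with 1477 at an unadjusted p below 0.05, and Srebf2 gave 0.71 (adjusted p = 0.353).

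**Figure D2:**
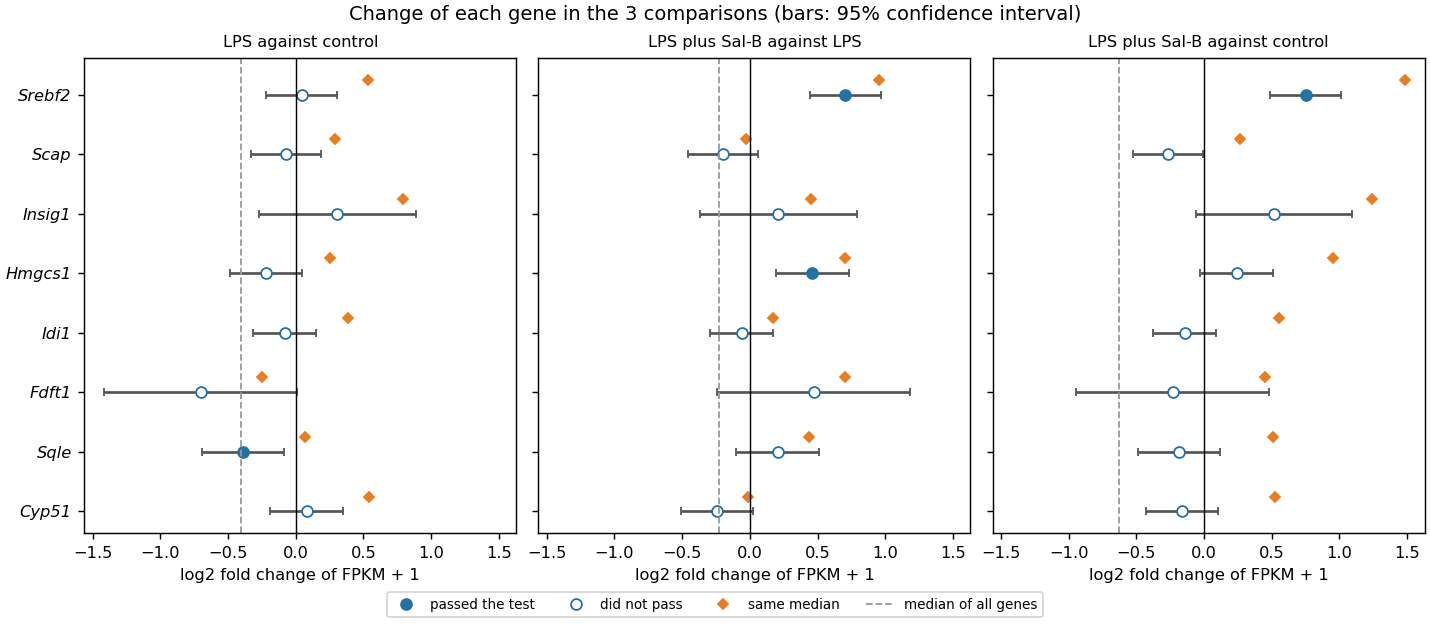
Change of each gene in FPKM + 1 on the log2 scale, with 95% confidence intervals, in the 3 comparisons; filled circles passed the test, open circles did not, orange diamonds give the value at the same median, and the dashed line is the median of all genes tested. Most circles lie to the right of the dashed line, with Srebf2 farthest right when Sal-B was added (0.71 against a median of −0.22).

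Ratios between genes of the same library are not changed by multiplying that library by 1 factor, as the scalings to the same median and to the same FPKM total do. The Srebf2 level was 8.41 and 11.1 times that of Scap in control, 10.7 and 10.6 times with LPS, and 20.7 and 22.3 times with the combination. The ratio of Srebf2 to Insig1 was 1.59 and 1.09 in control, 1.09 and 1.08 with LPS, and 1.52 and 1.57 with the combination, so control replicate 2 resembled the Sal-B pair. Among the enzymes, the ratio of Hmgcs1 to Cyp51 was 1.56 and 1.42 in control, 1.28 and 1.11 with LPS, and 2.05 and 1.98 with the combination. The ratio of Hmgcs1 to Idi1 was 1.15 and 1.21, then 1.12 and 1.02, then 1.59 and 1.56. The ratio of Sqle to Cyp51 was 1.41 and 0.998 in control, 0.848 and 0.814 with LPS, and 1.24 and 1.11 with the combination. It did not set the Sal-B pair apart, because control replicate 2 was highest. The enzyme genes thus changed unequally, with Hmgcs1 higher relative to Cyp51 and Idi1 in both Sal-B libraries than in any of the other 4. These pairs were chosen after their values were seen and carry no test.

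**Figure D3:**
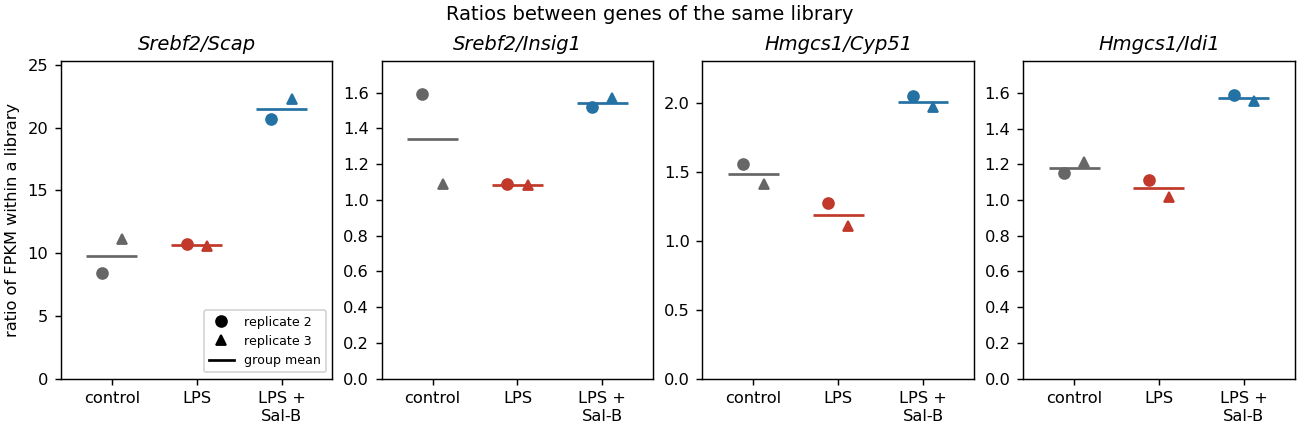
Ratio of the FPKM values of gene pairs within each library, with circles for replicate 2, triangles for replicate 3 and a line at the mean of the pair. Srebf2 to Scap separates the Sal-B pair (20.7 and 22.3) from the other 4 libraries (8.41 to 11.1), and Srebf2 to Insig1 does not, because control replicate 2 stands at 1.59.

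The rest of the cholesterol pathway was uneven too. Of 15 other synthesis enzymes tested, LPS gave 4 higher and 3 lower, 2 rose and 2 fell when Sal-B was added, and 3 rose and 5 fell in cells given both agents against control. Over all genes, 14.2% were higher and 48.9% lower with LPS, 10.5% and 31.8% when Sal-B was added, and 14.0% and 58.8% with both agents. The enzyme counts became 7 and 2, 3 and 0, and 8 and 2 at the same median. Their median changes were −0.095, −0.19 and −0.16, beside −0.40, −0.22 and −0.63 for all genes. Mvd, which makes isopentenyl diphosphate, read 9.64 and 10.7 FPKM in control, 12.1 and 13.6 with LPS, and 18.8 and 19.9 with the combination. It rose by 0.55 ± 0.10 over LPS (adjusted p = 0.0112), but without LPS replicate 2, combination replicate 2 or combination replicate 3 the adjusted p was 0.0747, 0.080 and 0.0957. Lbr, a sterol reductase of the nuclear envelope, fell from 16.9 ± 3.37 to 4.86 ± 0.479 FPKM with LPS (SD, n = 2; −1.60 ± 0.17, adjusted p = 0.000904). Sc5d, a late desaturase, fell by 0.60 ± 0.095 with LPS (adjusted p = 0.00332, but −0.12 at the same median with an adjusted p of 0.252) and by a further 0.40 ± 0.095 with Sal-B (adjusted p = 0.0229), the second lost without any 1 library of the 2 groups compared (highest adjusted p 0.177) and −0.17 at the same median (adjusted p = 0.161).

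A further 4 enzymes were chosen after their values were seen. Fdps, Lss and Msmo1, which act between isoprene condensation and demethylation, rose with LPS by 0.98 ± 0.23, 0.46 ± 0.13 and 0.30 ± 0.081 (adjusted p = 0.0124, 0.0290 and 0.0232). Each of these calls was lost without LPS replicate 2 or without LPS replicate 3, with adjusted p up to 0.0667 for Fdps, 0.140 for Lss and 0.107 for Msmo1. The calls of Lss and Msmo1 were also lost without combination replicate 2 (adjusted p = 0.0701 and 0.0796) or combination replicate 3 (adjusted p = 0.0701 and 0.0796), and that of Lss without control replicate 3 (adjusted p = 0.0554). Scaled to the same median, Lss and Msmo1 rose by 0.85 and 0.78. Ebp, a sterol isomerase, fell from 7.93 ± 0.615 to 4.18 ± 0.177 FPKM when Sal-B was added (−0.78 ± 0.20, adjusted p = 0.0262), with adjusted p up to 0.133 when 1 library was left out and 0.0540 at the same median.

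**Figure D4:**
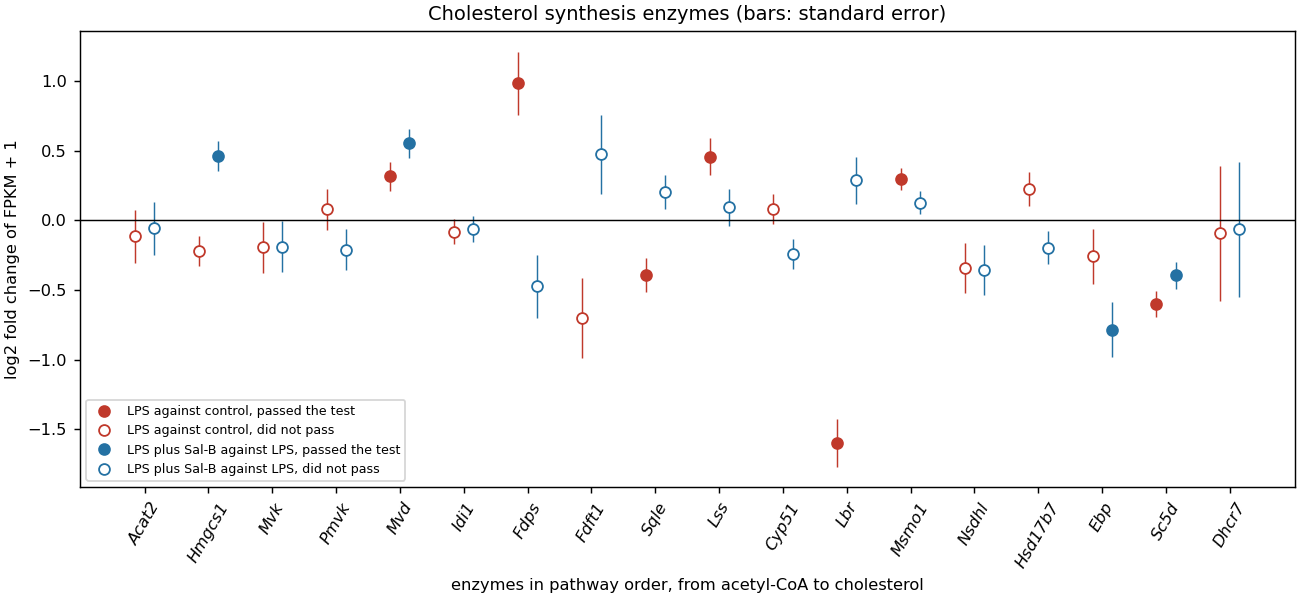
Change of cholesterol synthesis enzymes in pathway order, earlier steps on the left, with standard errors; red is LPS against control, blue is the combination against LPS, and filled circles passed the test. Neither colour moves in a single direction along the pathway: with Sal-B added, Hmgcs1 and Mvd rose while Ebp and Sc5d fell, as deposited. At the same median Hmgcs1 and Mvd still rose, and Ebp and Sc5d did not pass (limma, adjusted p = 0.0540 and 0.161).

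The next list held genes that cleave SREBP or tie sterol sensing to protein degradation. Of 18 tested, LPS gave 1 higher and 9 lower, 2 rose and 5 fell when Sal-B was added, and 2 rose and 13 fell with both agents against control. The shares of all genes were 14.2% and 48.9%, 10.5% and 31.8%, and 14.0% and 58.8%. With medians made equal the list had 5 and 3, 3 and 4, and 4 and 7. Its median changes were −0.34, −0.32 and −0.87 as deposited. Erlin1 and Erlin2, which take part in protein degradation at the endoplasmic reticulum, fell with LPS from 12.3 ± 3.33 to 3.36 ± 0.352 FPKM (−1.59 ± 0.19, adjusted p = 0.00120) and from 5.91 ± 0.304 to 2.0 ± 0.178 (−1.21 ± 0.11, adjusted p = 0.000610, and −0.80 at the same median). Rnf139, a ubiquitin ligase of the same membrane, fell when Sal-B was added, from 3.24 ± 0.358 to 1.36 ± 0.090 FPKM (−0.85 ± 0.11, adjusted p = 0.00423, but 0.0536 without combination replicate 2). Pgrmc1, a heme-binding membrane protein, fell from 23.3 ± 0.104 to 10.6 ± 0.388 FPKM in that step (−1.07 ± 0.091, adjusted p = 0.00197). Srebf1, the sister gene of Srebf2 that favours fatty acid synthesis, was chosen after its values were seen. It rose from 5.24 ± 0.0599 to 7.12 ± 0.215 FPKM (0.38 ± 0.096, adjusted p = 0.0265), with 0.61 at the same median, and the adjusted p was 0.107 to 0.178 without any 1 library of the 2 groups compared.

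Cholesterol uptake and transport held both rises and falls. Of 12 genes tested, LPS gave 4 higher and 5 lower, 4 rose and 2 fell when Sal-B was added, and 5 rose and 4 fell with both agents against control. All genes had 14.2% higher and 48.9% lower, 10.5% and 31.8%, and 14.0% and 58.8%. At the same median these counts were 6 and 2, 5 and 2, and 8 and 2. The median changes of the list were −0.11, 0.065 and 0.046 as deposited. Scarb1, a receptor for high-density lipoprotein, read 7.40 and 7.43 in control, 6.19 and 5.92 with LPS, and 13.6 and 14.1 with both agents, a rise over LPS of 1.07 ± 0.088 (adjusted p = 0.00194). Gramd1a, which moves cholesterol from the plasma membrane inward, rose with LPS by 1.02 ± 0.13 (adjusted p = 0.00171) and by 0.43 ± 0.13 more with Sal-B (adjusted p = 0.0464, up to 0.214 when 1 library was left out, and 0.68 at the same median). Npc2, which hands cholesterol out of lysosomes, rose from 35.8 ± 0.812 to 50.5 ± 0.846 FPKM with LPS (0.48 ± 0.078, adjusted p = 0.00352, and 0.98 at the same median) and fell to 26.5 ± 0.304 with Sal-B (−0.90 ± 0.078, adjusted p = 0.00200).

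Of 15 genes listed for cholesterol esters, oxysterols and efflux, 8 were measured and tested. Ch25h, Abca1, Nr1h3, Cyp7b1, Cyp46a1, Cyp39a1 and Sult2b1 had no values, so nothing is known here of their changes. With LPS 6 of the 8 fell and 0 rose, and 2 fell and 0 rose when Sal-B was added. With both agents 7 fell and 0 rose against control. Among all genes 48.9%, 31.8% and 58.8% were lower and 14.2%, 10.5% and 14.0% higher. Median changes were −0.74, −0.061 and −1.05. Scaling to the same median gave 0 that rose and 4 that fell, 1 rose and 1 fell, and 0 rose and 3 fell. Abcg1, a sterol exporter, fell from 20.3 ± 0.256 to 4.34 ± 0.058 FPKM with LPS (−1.99 ± 0.088, adjusted p = 0.000144), and Lipa, the lysosomal lipase that frees cholesterol from its esters, from 223.8 ± 36.2 to 55.1 ± 2.77 (−1.99 ± 0.13, adjusted p = 0.000296). Cyp27a1, which makes an oxysterol, fell by 1.74 ± 0.098 (adjusted p = 0.000235) and Soat1, which esterifies cholesterol, by 0.74 ± 0.085 (adjusted p = 0.00112, but −0.26 at the same median with an adjusted p of 0.0472). With Sal-B added, Abcg1 gave −0.33 ± 0.088 (adjusted p = 0.0316, up to 0.196 when 1 library was left out, and −0.14 at the same median with an adjusted p of 0.260), and Lipa, Cyp27a1 and Soat1 gave −0.047, −0.075 and −0.15 (adjusted p = 0.789, 0.568 and 0.216), with the sign turned at the same median.

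Fatty acid synthesis, the branch governed by SREBP1, had 1 of 14 genes up and 8 down with LPS, 1 up and 5 down when Sal-B was added, and 1 up and 8 down with both agents against control. The shares over all genes were 14.2% up and 48.9% down, 10.5% and 31.8%, and 14.0% and 58.8%. These numbers were 2 and 5, 2 and 2, and 4 and 4 at the same median. The list had median changes of −0.42, −0.23 and −0.41 as deposited. Scd1, the stearoyl-CoA desaturase, fell with LPS by 1.27 ± 0.099 (adjusted p = 0.000418, and −0.81 at the same median), Fads1, a desaturase of polyunsaturated fatty acids, by 1.13 ± 0.10 (adjusted p = 0.000579, and −0.63 at the same median), and the elongase gene Elovl5 changed by −1.53 ± 0.085 (adjusted p = 0.000226). Fabp5, which encodes a fatty acid binding protein, went the other way, from 28.7 ± 5.10 to 111.5 ± 0.927 FPKM with LPS (1.93 ± 0.13, adjusted p = 0.000316) and down to 54.3 ± 0.609 with Sal-B (−1.02 ± 0.13, adjusted p = 0.00388).

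The isoprenoid branches, which draw on the same mevalonate units for protein prenylation, dolichol and ubiquinone, had 2 of 16 genes up and 4 down with LPS, 1 up and 6 down when Sal-B was added, and 1 up and 8 down with both agents against control. Over all genes 14.2% were up and 48.9% down, 10.5% and 31.8%, and 14.0% and 58.8%. Scaled to the same median, the list had 4 and 1, 1 and 3, and 4 and 2. Its median changes as deposited were −0.21, −0.36 and −0.52. Rabggtb and Chm, both needed to attach geranylgeranyl groups to Rab proteins, fell when Sal-B was added, from 24.8 ± 0.170 to 13.0 ± 0.323 FPKM (−0.89 ± 0.081, adjusted p = 0.00208) and from 3.56 ± 0.285 to 1.04 ± 0.0974 (−1.16 ± 0.10, adjusted p = 0.00203). Nus1, a subunit of the enzyme for dolichol, rose with LPS by 0.68 ± 0.094 (adjusted p = 0.00211, and 1.16 at the same median) and fell with Sal-B by 0.63 ± 0.094 (adjusted p = 0.00588, up to 0.0607 when 1 library was left out, and −0.39 at the same median). Zmpste24, a protease that trims prenylated lamin A, fell with LPS by 0.90 ± 0.14 (adjusted p = 0.00305, and −0.44 at the same median).

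**Figure D5:**
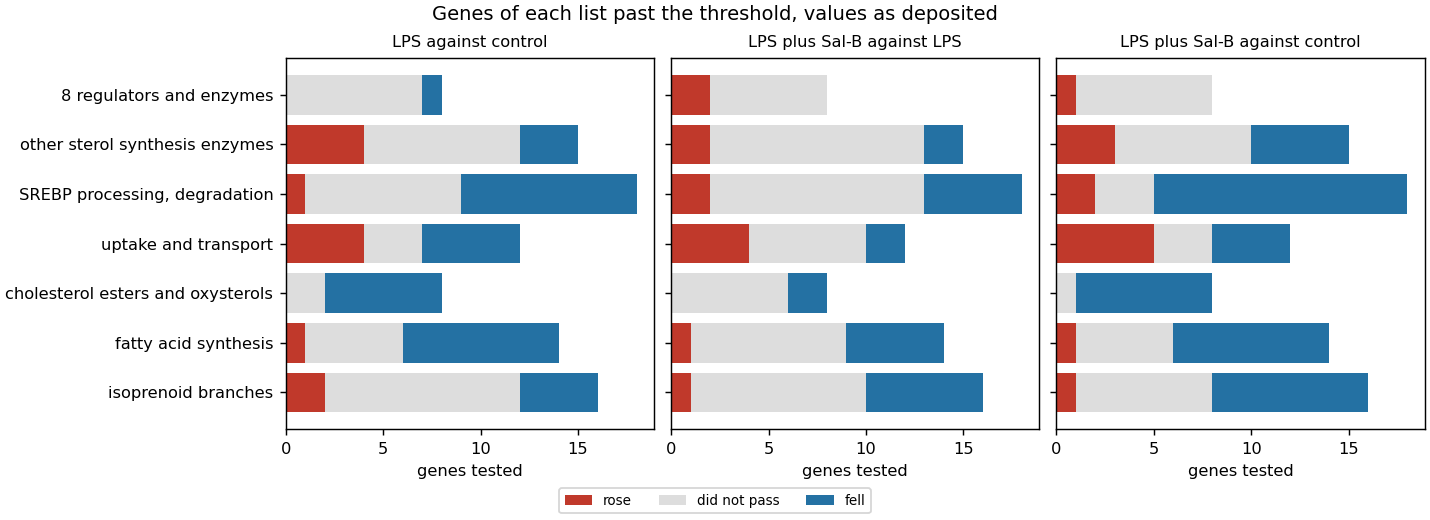
Number of genes tested in each list that rose (red), fell (blue) or did not pass (grey) in the 3 comparisons, with values as deposited. The 8 regulators and enzymes show 0, 2 and 1 rises and 1, 0 and 0 falls. The list of cholesterol esters and oxysterols shows 0 rises in all 3, among the 8 of its 15 genes that were measured. Over all genes tested, 14.2%, 10.5% and 14.0% rose in the 3 comparisons, and 48.9%, 31.8% and 58.8% fell.

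Over the 6 libraries the genes most like Srebf2 in pattern, among 3296 candidates with a mean of at least 5 FPKM and a range of at least 1 on the log2 scale, were Mark3, Slc4a7, Ankrd12, Glg1 and Ccnt1. Their Pearson r with Srebf2 ran from 0.996 to 0.999 (n = 6 libraries, which fall into 3 groups and share their scaling). Mark3, a kinase gene, read 5.37 and 6.52 FPKM in control, 6.54 and 5.79 with LPS, and 13.4 and 14.1 with both agents. The mean profile of the 5 enzymes was closest to Dnajc7, Kxd1, Bud23, Map3k7 and Tmem203, with r from 0.878 to 0.929, and none of the other sterol genes listed above was among these 5.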

How the data were processed

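RNA sequencing of 6 RAW264.7 libraries was used. Per the labels' protocols, Trizol RNA went into libraries (a TruSeq kit and a stranded KAPA kit are both named), enriched for poly(A) RNA or depleted of rRNA, and which was done for each library is not given. The submitters' processing notes name cutadapt, HISAT2 2.0.5, StringTie and GRCm38. The deposited unit is FPKM, computed by the authors, per the file headers; how transcripts were combined and whether libraries were scaled is not given in the sources used here.

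A single linear model of log2(FPKM + 1) held all 6 libraries, leaving 3 residual degrees of freedom (limma 3.58.1 under R 4.3.3 with trended empirical Bayes, genes at 1 FPKM or more in at least 2 libraries, two-sided, Benjamini-Hochberg over 10014 genes, threshold 0.05). The fit was tested on simulated data. Transcript lengths came from GENCODE M21 (GRCm38), which matched 10753 of 10780 gene IDs by ID without version. The 8 genes, the 6 pathway lists and the tests were chosen with earlier results of these data known. Named genes were the 8, up to 4 per list with the smallest p in any comparison (22 in all), and 5 picked once values were known, marked so in the text; genes of like pattern followed a fixed rule. Some genes that this rule names are not reported here and were not replaced, and they still count in their lists. The 17 alternatives changed the pseudocount, filter, scaling, block, trend, libraries in the model and averaging, or left out 1 library.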

Additional observations from a re-analysis of the deposited data

How the results depend on the processing

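Among 408 refits of the 8 genes, 334 kept their direction and side of the threshold, 31 passed where the reported fit did not, 15 no longer passed and 28 changed sign; among 1374 refits of the 27 other named genes these numbers were 1168, 35, 147 and 24. No cause was tested. Limits are 2 libraries per group, an unknown exact depth and no stated scaling. The replicate numbers share no source in the labels, and differences between replicates correlated at 0.014, 0.0040 and 0.035 between groups; with the replicate block the 8 genes gave 0 higher and 1 lower, 2 and 0, and 1 and 0 in the 3 comparisons, and all genes 1353 and 4733, 944 and 2878, and 1357 and 5838. The block ended the calls of Scarb1 (adjusted p = 0.0956), Chm (0.0516) and Msmo1 (0.0527) with LPS and of Gramd1a (0.0551), Abcg1 (0.0674), Elovl5 (0.0662) and Srebf1 (0.0545) with Sal-B added, and no call of the 8 genes.

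For all genes, the reported counts higher and lower are 1421 and 4898 for LPS against control, 1054 and 3184 for the combination against LPS, and 1399 and 5890 for the combination against control. The same median gave 2898 and 2648, 1766 and 2024, and 3179 and 3207; quantile normalization gave 2416 and 2660, 1596 and 1631, and 2933 and 3241. The same FPKM total gave 1637 and 1730 for the combination against LPS. Treated pairs averaged, which leaves 1 residual degree of freedom, gave 351 and 1230, 0 and 0, and 579 and 3421, and only the groups compared gave 1696 higher for the combination against LPS. Leaving out 1 library gave 953 to 1967 and 3727 to 5483, 268 to 1691 and 775 to 4554, and 965 to 1749 and 4759 to 6361.

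For the 8 genes, LPS against control gave 4 higher and 0 lower at the same median, 2 and 0 with quantile normalization, 3 lower at the same FPKM total and 0 lower with treated pairs averaged. The combination against LPS gave 4 higher and 1 lower with only the groups compared and 0 higher with treated pairs averaged. The combination against control gave 6 higher at the same median, 7 with quantile normalization, 2 at the same FPKM total, 0 with treated pairs averaged, and 1 lower with 1 FPKM or more required in all 6 libraries. Leaving out 1 library gave 0 to 1 higher and 0 to 1 lower, 0 to 4 and 0 to 1, and 1 to 2 and 0 to 2.

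Signs changed on the log2 scale as follows. For LPS against control, the same FPKM total gave −0.14 for Srebf2, −0.094 for Cyp51 and −0.093 for Pgrmc1. The same median gave 0.29 for Scap, 0.25 for Hmgcs1, 0.072 for Sqle, 0.39 for Idi1, 0.19 for Scarb1, 0.043 for Chm, 0.20 for Ebp and 0.17 for Srebf1, and quantile normalization 0.44 for Scap, 0.12 for Hmgcs1, 0.27 for Idi1, 0.18 for Scarb1, 0.13 for Chm, 0.14 for Ebp and 0.19 for Srebf1. For the combination against LPS, the same median gave 0.17 for Idi1, 0.13 for Cyp27a1, 0.20 for Lipa and 0.086 for Soat1. The same FPKM total gave 0.18 for Idi1, 0.14 for Cyp27a1, 0.21 for Lipa and 0.096 for Soat1, and quantile normalization 0.011 for Scap, 0.14 for Idi1, 0.12 for Cyp27a1, 0.24 for Lipa and 0.062 for Soat1. For the combination against control, the same median gave 0.26 for Scap, 0.51 for Sqle, 0.56 for Idi1, 0.45 for Fdft1, 0.52 for Cyp51, 0.32 for Npc2 and 0.13 for Rabggtb, and quantile normalization 0.45 for Scap, 0.38 for Sqle, 0.41 for Idi1, 0.36 for Fdft1 and 0.42 for Cyp51. Leaving out 1 library gave, for LPS against control, −0.055 to 0.14 for Srebf2, −0.050 to 0.67 for Insig1, −0.0085 to 0.17 for Cyp51 and −0.54 to 0.026 for Ebp. It gave −0.0975 to 0.0031 for Lipa and −0.0085 to 0.19 for Lss for the combination against LPS, and −0.63 to 0.17 for Fdft1 and −0.031 to 0.13 for Nus1 for the combination against control.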
